A study of Rattus norvegicus with 8 samples.

Results

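The antioxidant and glutathione enzymes described here are 44 genes: superoxide dismutases, catalase, glutathione peroxidases, peroxiredoxins, the thioredoxin system, glutathione synthesis, glutathione S-transferases, the NRF2 pathway with its classical induced enzymes, ferritins and a metallothionein. Each gene was followed by its brightest probe set among those annotated to that symbol alone, a probe set being a group of short probes that reports 1 transcript. Of the 44 genes, 41 had such a probe set, out of 14217 genes in the series, and 39 were bright enough to be tested. Prdx1, Fth1 and Ftl1 had only probe sets annotated to several symbols, and no value is given for them. Gsr and Gsta3 were dim and were not tested.

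RNA came from whole hearts of aged female Norway Brown rats, 18 to 22 months old, on 8 single-colour Affymetrix arrays. Sham rats kept their ovaries after surgery. The other 3 groups were ovariectomized: 1 received nothing more, 1 received a pellet of 0.5 mg 17-β estradiol at surgery (early estradiol), and 1 received the same pellet 9 weeks later (late estradiol). The pellet was placed under the skin and releases its content over 90 days, and no placebo pellet is named for the groups without estradiol. Equal amounts of RNA from 3 hearts were mixed for every array, with 2 arrays in a group, replicates 1 and 2. The p-values measure only how much such pools differ, and that spread may be technical in part. Whole-heart RNA cannot tell fewer cells of a type from less RNA per cell.

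Superoxide dismutases turn superoxide into hydrogen peroxide, which catalase, glutathione peroxidases and peroxiredoxins then remove. Glutathione peroxidases draw mainly on glutathione and peroxiredoxins mainly on thioredoxin, though single members differ. Glutathione and thioredoxin are kept reduced by reductases that consume NADPH. The transcription factor NRF2, held in check by KEAP1, drives many of these genes, and the heart depends on them because its dense mitochondria produce oxidants continuously.

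The arrays differed in brightness. The trimmed mean of the deposited signal ran from 28.1 on late replicate 1 to 137.0 on early replicate 2, and each replicate 1 array was dimmer than each replicate 2 array by this measure. The ratio of the 3′ to the 5′ Gapdh control probe set, which is higher where RNA or its copy is shortened, was 2.70 on late replicate 1 and 1.26 to 1.65 on the other 7 arrays. Values below are log2 signals after quantile normalization, which gives all arrays the same distribution, and differences are log2 differences between group means of 2 arrays with limma's moderated standard error (±). Mean levels of 8 cardiomyocyte markers were 12.4 to 12.7 on all arrays. Most of them lie near the top of the shared distribution, which leaves their mean little room to differ. Of the less bright ones, Ryr2 ran from 11.07 to 11.86 and Actn2 from 11.56 to 12.22.

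No member passed a false discovery rate of 0.05 (limma, Benjamini-Hochberg) in any of the 6 pairwise comparisons or in the F test over the 4 groups. The smallest adjusted p of a member was 0.943, which Gpx1 shared with other members in late estradiol against ovariectomy alone. The background was 0% of the 18625 probe sets in each comparison, so the members shared this outcome with the whole array. At an unadjusted p under 0.05, 0 members were found in ovariectomy against sham (1.47% of all probe sets), 0 in early estradiol against ovariectomy (1.71%), 1 in late estradiol against ovariectomy (4.36%) and 1 in late against early estradiol (3.87%). Against sham, 0 members reached that level with early estradiol (0.773% of all probe sets) and 1 with late estradiol (3.37%). The F test gave 0 members at an unadjusted p under 0.05, with 1.86% of all probe sets.

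Many tested members were among the brighter probe sets. By mean log2 signal they ranked from percentile 50.2 (Gstt1) to percentile 99.7 (Gpx1) of all probe sets other than controls. The shares of all probe sets, above and below, include dimmer ones and were not matched to the members in brightness. The differences were small for most members. In ovariectomy against sham 35 of the 39 differed by less than 1.5-fold (82.5% of all probe sets did so), with early estradiol against ovariectomy 36 (81.4%), and with late estradiol against ovariectomy 35 (75.9%). For late against early estradiol the count was 34 (76.6%), and against sham it was 37 with early (87.4%) and 35 with late estradiol (77.5%). The standard error of a difference ranged over members from 0.14 to 0.81, with a median of 0.27. The widest spread belonged to glutathione synthetase, Gss.

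**Figure D1:**
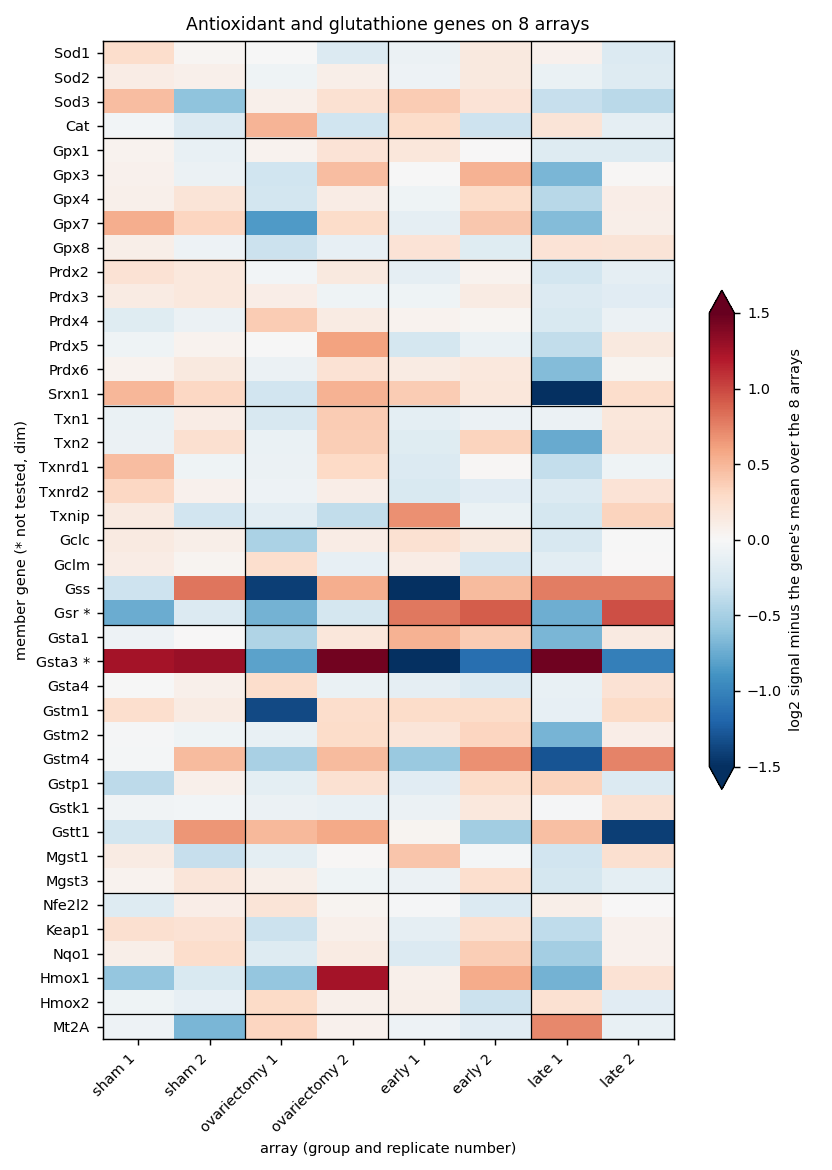
Each cell shows the log2 signal of a gene (rows, grouped by role) on an array (columns, by group and replicate number), minus that gene's mean over the 8 arrays; an asterisk marks the dim genes Gsr and Gsta3. Late replicate 1 is the lowest array for 18 of the 39 tested members, with deep blue cells for Srxn1 and Gstm4.

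Among the superoxide dismutases, the cytosolic copper-zinc enzyme Sod1 had log2 signals of 11.68 and 11.45 in sham, 11.41 and 11.21 after ovariectomy alone, 11.34 and 11.56 with early estradiol, and 11.48 and 11.21 with late estradiol. Both ovariectomy arrays lay below both sham arrays, at a difference of -0.25 ± 0.17, and the estradiol groups overlapped with each. Mitochondrial manganese superoxide dismutase, Sod2, had 9.84 and 9.82 in sham, 9.68 and 9.82 after ovariectomy alone, 9.66 and 9.89 with early estradiol, and 9.63 and 9.54 with late estradiol. The late estradiol arrays were the lowest pair of the 8, -0.16 ± 0.16 from ovariectomy alone, a difference about the size of its standard error. The values of Sod3, the secreted form held in the extracellular matrix, were 8.25 and 7.18 in sham, 7.85 and 8.0 after ovariectomy alone, 8.17 and 7.98 with early estradiol, and 7.44 and 7.38 with late estradiol.

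Both late arrays of Sod3 lay below both early arrays, at -0.66 ± 0.31 (limma unadjusted p = 0.06, adjusted p = 0.987), but the lowest array of all was sham replicate 2. The mean level of 8 fibroblast markers was 8.11 and 8.49 on the late arrays and 8.71 to 9.37 on the other 6, and its part in the Sod3 values was not tested. Catalase, which breaks down hydrogen peroxide in peroxisomes, stood at 10.12 and 9.96 in sham, 10.67 and 9.86 after ovariectomy alone, 10.43 and 9.85 with early estradiol, and 10.35 and 10.03 with late estradiol. Its highest array, ovariectomy replicate 1, belonged to the same group as 1 of its lower arrays, so the groups overlapped throughout. Of the 4 genes, 3 lay below ovariectomy alone with late estradiol (median -0.12).

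Gpx1, the abundant cytosolic and mitochondrial glutathione peroxidase, gave the smallest p in late estradiol against ovariectomy. Its log2 signals were 12.13 and 11.97 in sham, 12.14 and 12.29 after ovariectomy alone, 12.25 and 12.09 with early estradiol, and 11.89 and 11.89 with late estradiol. The late arrays were the lowest of the 8, and the early and ovariectomy arrays overlapped. The equal late values arose in quantile normalization, and the deposited late signals were 1673 and 6219. The difference of late estradiol from ovariectomy alone was -0.33 ± 0.14, a ratio of 1.25, with a 95% interval of -0.63 to -0.02 (limma unadjusted p = 0.0387, adjusted p = 0.943). Against early estradiol it was -0.28 ± 0.14 (unadjusted p = 0.0682, adjusted p = 0.987).

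The secreted plasma enzyme Gpx3 had 10.20 and 10.05 in sham, 9.84 and 10.61 after ovariectomy alone, 10.14 and 10.67 with early estradiol, and 9.46 and 10.15 with late estradiol. It was lowest on late replicate 1, while late replicate 2 lay among the sham and early arrays. Gpx7, a peroxidase of the endoplasmic reticulum, had 6.46 and 6.23 in sham, 5.06 and 6.19 after ovariectomy alone, 5.78 and 6.32 with early estradiol, and 5.26 and 6.01 with late estradiol, and its ovariectomy arrays lay below both sham arrays at -0.72 ± 0.44 (limma unadjusted p = 0.13). That difference rests largely on ovariectomy replicate 1. Gpx4, which repairs oxidized membrane lipids, differed from ovariectomy alone by 0.19 ± 0.21 with early and -0.08 ± 0.21 with late estradiol. Gpx8, a membrane protein of the endoplasmic reticulum, lay above ovariectomy alone on both late arrays, at 0.42 ± 0.26.

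As a family the 5 glutathione peroxidases had a median difference of -0.22 in ovariectomy against sham, 0.19 with early and -0.08 with late estradiol against ovariectomy. With late estradiol 3 of the 5 lay below ovariectomy alone, and the median was 0.18 without late replicate 1.

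The peroxiredoxins and sulfiredoxin shared the sign of their late differences. All 6 measured members lay below ovariectomy alone with late estradiol (median -0.39), and all 6 lay below sham (median -0.36); none passed the test. Counted against the median of all probe sets, 6 of 6 lay lower in late estradiol against ovariectomy and 5 of 6 in late estradiol against sham, and 6 of 6 in both without between-array normalization and with arrays scaled to a common median. Without late replicate 1, 5 of 6 lay below ovariectomy alone (median -0.17) and 4 of 6 below sham (median -0.10), and without sham replicate 2 5 of 6 lay below sham. With the mean of all probe sets of a gene, 5 of 6 lay below ovariectomy alone. With early estradiol, 3 of the 6 lay below ovariectomy (median -0.04, beside 0.02 over all probe sets).

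Prdx2, an abundant cytosolic peroxiredoxin that is also plentiful in red blood cells, had 11.11 and 11.05 in sham, 10.86 and 11.04 after ovariectomy alone, 10.76 and 10.95 with early estradiol, and 10.62 and 10.76 with late estradiol. The sham arrays were the highest pair and the late arrays the lowest pair, without overlap. The difference of late estradiol from sham was -0.39 ± 0.15, a ratio of 1.31 (limma unadjusted p = 0.0254, adjusted p = 0.997), and that from ovariectomy alone was -0.26 ± 0.15. Of 11 red blood cell markers listed, 5 were measured and 3 were bright enough to be tested. Their mean level was 7.89 and 7.85 on the late arrays, 8.05 and 8.40 in sham, 7.64 and 8.04 after ovariectomy alone, and 9.09 and 8.45 with early estradiol. Their part in the Prdx2 values was not tested.

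The mitochondrial peroxiredoxin Prdx3 had 10.60 and 10.64 in sham, 10.58 and 10.41 after ovariectomy alone, 10.42 and 10.61 with early estradiol, and 10.28 and 10.31 with late estradiol. The late arrays were again the lowest pair, at -0.20 ± 0.15 from ovariectomy alone and -0.33 ± 0.15 from sham. Prdx4, which works in the endoplasmic reticulum, had 6.93 and 7.02 in sham, 7.50 and 7.24 after ovariectomy alone, 7.16 and 7.14 with early estradiol, and 6.89 and 7.03 with late estradiol. The ovariectomy arrays were the highest pair, at 0.39 ± 0.23 from sham, and the late arrays lay -0.41 ± 0.23 from ovariectomy alone.

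Prdx5, found in mitochondria, peroxisomes and cytosol, had 10.10 and 10.23 in sham, 10.16 and 10.78 after ovariectomy alone, 9.91 and 10.07 with early estradiol, and 9.80 and 10.32 with late estradiol. Both early arrays lay below both ovariectomy arrays, at -0.48 ± 0.23 (limma unadjusted p = 0.0684, adjusted p = 1), and the high value on ovariectomy replicate 2 widened that gap. Prdx6, which also acts on oxidized phospholipids, had 9.57 and 9.65 in sham, 9.42 and 9.72 after ovariectomy alone, 9.63 and 9.67 with early estradiol, and 8.86 and 9.55 with late estradiol. Only late replicate 1 stood away from the rest, and the late difference from ovariectomy alone was -0.37 ± 0.23.

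Srxn1, the sulfiredoxin that restores overoxidized peroxiredoxins, was the most uneven of this family. Its brightest probe set had 6.45 and 6.26 in sham, 5.66 and 6.47 after ovariectomy alone, 6.33 and 6.11 with early estradiol, and 4.09 and 6.21 with late estradiol. The value on late replicate 1 lay far below the other 7 arrays, which is the whole of the late difference of -0.91 ± 0.59: without that array it was 0.15. A second Srxn1 probe set that passed the filter differed by 0.39 in the same comparison, so the probe sets disagreed in sign.

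**Figure D2:**
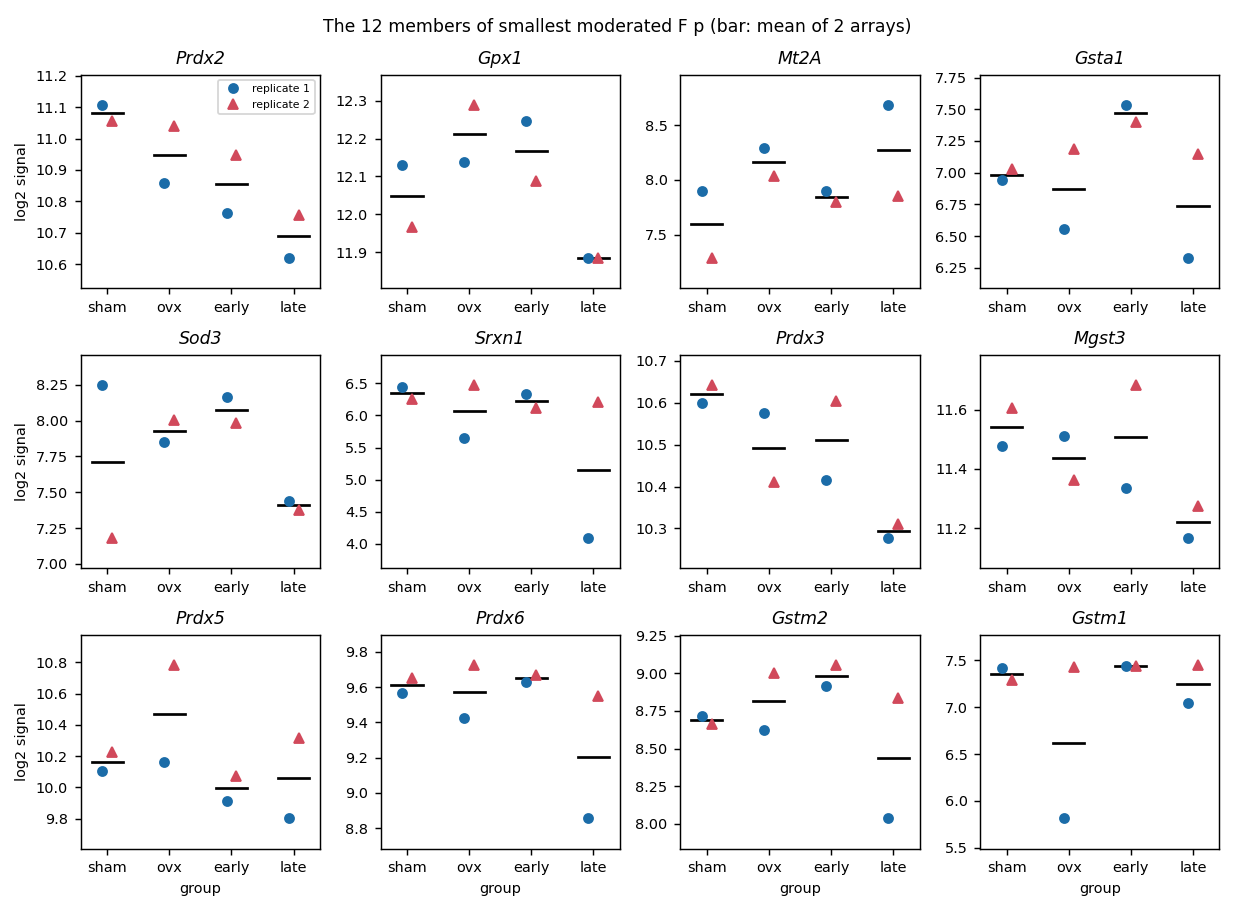
Log2 signal (vertical axis, a different range in each panel) of the 12 members of smallest F-test p in the 4 groups (horizontal axis); circles are replicate 1, triangles replicate 2, and bars the mean of 2 arrays. Both late arrays of Prdx2, Gpx1, Prdx3 and Mgst3 lie below the other 6, whereas for Srxn1, Prdx6 and Gstm2 the low late mean comes from replicate 1.

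Thioredoxins carry electrons from NADPH to most peroxiredoxins. Txn1, cytosolic thioredoxin, differed from ovariectomy alone by -0.19 ± 0.21 with early and -0.03 ± 0.21 with late estradiol. Mitochondrial Txn2 differed by -0.07 ± 0.31 and -0.43 ± 0.31, with late replicate 1 (8.79) below the other 7 arrays (9.36 to 9.92). The reductases that recharge them, cytosolic Txnrd1 and mitochondrial Txnrd2, differed by -0.20 ± 0.27 and -0.21 ± 0.25 with early estradiol. With late estradiol they stood at -0.32 ± 0.27 and -0.02 ± 0.25. A second Txnrd1 probe set differed by 0.59 with early estradiol, opposite in sign to the brightest one.

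Txnip, which binds and inhibits thioredoxin and responds to glucose, had 10.74 and 10.32 in sham, 10.44 and 10.23 after ovariectomy alone, 11.29 and 10.50 with early estradiol, and 10.34 and 10.94 with late estradiol. Both early arrays lay above both ovariectomy arrays, at 0.56 ± 0.28 (limma unadjusted p = 0.0738, adjusted p = 1), while early replicate 2 lay within the range of the sham and late arrays. Of the 5 genes of this system, 4 lay below ovariectomy alone with late estradiol (median -0.03), and 1 of 5 did so without late replicate 1.

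Glutathione is made in a pair of steps, by glutamate-cysteine ligase and then by glutathione synthetase. Gclc, the catalytic subunit of the ligase, had 6.00 and 5.95 in sham, 5.39 and 5.97 after ovariectomy alone, 6.09 and 6.01 with early estradiol, and 5.63 and 5.86 with late estradiol. The early arrays were the highest pair by a narrow margin, 0.37 ± 0.33 above ovariectomy alone, where replicate 1 was low. Gclm, the modifier subunit, had differences between -0.16 and -0.01 in the 6 comparisons, each with a standard error of 0.29. Glutathione synthetase, Gss, ranged from 3.25 on early replicate 1 to 5.67 on sham replicate 2, and its late difference from ovariectomy of 1.20 had a standard error of 0.81. Gsr, glutathione reductase, was dim, between 2.47 and 4.19 over the 8 arrays, and has no test.

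The glutathione S-transferases attach glutathione to reactive compounds. Close family members have similar sequences, so a probe set may pick up a relative. Gsta1, an alpha-class enzyme that also reduces lipid peroxides, had 6.94 and 7.03 in sham, 6.56 and 7.19 after ovariectomy alone, 7.53 and 7.40 with early estradiol, and 6.33 and 7.15 with late estradiol. The early arrays were the highest pair, and the ovariectomy and late arrays each split into a lower replicate 1 and a higher replicate 2. Late against early estradiol gave -0.73 ± 0.33, a ratio of 1.66 (limma unadjusted p = 0.049, adjusted p = 0.987). Without late replicate 1 the same difference was -0.32.

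Gstm1, of the mu class, had 7.42 and 7.29 in sham, 5.82 and 7.43 after ovariectomy alone, 7.44 and 7.44 with early estradiol, and 7.04 and 7.45 with late estradiol. One low array, ovariectomy replicate 1, carried the difference of -0.73 ± 0.43 from sham and that of 0.82 ± 0.43 between early estradiol and ovariectomy. For Gstm2, of the same class, the values were 8.71 and 8.67 in sham, 8.62 and 9.00 after ovariectomy alone, 8.92 and 9.05 with early estradiol, and 8.04 and 8.84 with late estradiol. Late replicate 1 was the lowest, and both late arrays lay below both early arrays at -0.55 ± 0.26 (limma unadjusted p = 0.0626). The membrane-bound Mgst3, which also reduces lipid hydroperoxides, had 11.48 and 11.60 in sham, 11.51 and 11.36 after ovariectomy alone, 11.33 and 11.68 with early estradiol, and 11.17 and 11.28 with late estradiol. Its late arrays were the lowest pair, at -0.22 ± 0.16 from ovariectomy alone and -0.32 ± 0.16 from sham.

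Of the remaining tested transferases, Gsta4 alone had a group beyond all other arrays. Gsta4, which detoxifies products of lipid peroxidation, was lowest on both early arrays (8.07 and 7.99, with 8.08 to 8.47 elsewhere), at -0.25 ± 0.21 from ovariectomy alone. The dim, untested Gsta3 was also lowest on both early arrays (-1.04 and 0.31, with 0.42 to 2.90 elsewhere). Gstp1, Gstk1 and Mgst1 differed from ovariectomy alone by 0.02, 0.20 and 0.04 with late estradiol. Gstt1 and Gstm4, which varied widely between arrays of a group, differed by -1.01 ± 0.74 and -0.26 ± 0.69. Of the 10 transferases tested, 8 lay above ovariectomy alone with early estradiol (median 0.10) and 6 lay below it with late estradiol (median -0.09). Leaving out late replicate 1, 3 of 10 lay below, and without ovariectomy replicate 1 the early count above was 5 of 10.

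Nfe2l2, which encodes NRF2, had 7.82 and 8.11 in sham, 8.21 and 8.05 after ovariectomy alone, 7.99 and 7.80 with early estradiol, and 8.10 and 8.02 with late estradiol. Both early arrays lay below both ovariectomy arrays at -0.23 ± 0.21, a gap close to its standard error. Keap1, whose product targets NRF2 for degradation, had 7.15 and 7.12 in sham, 6.59 and 6.98 after ovariectomy alone, 6.77 and 7.14 with early estradiol, and 6.52 and 6.97 with late estradiol. Both ovariectomy arrays lay below both sham arrays at -0.35 ± 0.28, and a second, dimmer Keap1 probe set gave 0.25. In late estradiol against ovariectomy the second probe set gave -1.49 and the brightest one -0.04, so they disagreed in size there.

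Nqo1, a quinone reductase and a standard readout of NRF2 activity, had 7.54 and 7.72 in sham, 7.26 and 7.57 after ovariectomy alone, 7.25 and 7.82 with early estradiol, and 6.95 and 7.51 with late estradiol. In each group replicate 1 was the lower array, and only the late and sham arrays did not overlap, at -0.40 ± 0.29. Hmox1, the inducible heme oxygenase, had 4.67 and 5.02 in sham, 4.67 and 6.50 after ovariectomy alone, 5.33 and 5.80 with early estradiol, and 4.54 and 5.46 with late estradiol. Ovariectomy replicate 2 was the highest array by a wide margin, and the other ovariectomy array was level with sham replicate 1, so the difference of 0.74 ± 0.60 rests on 1 array. The mean level of 8 macrophage markers was also highest on that array, at 8.03 against 5.94 to 7.42 on the other 7, and its part in the Hmox1 value was not tested. Hmox2, the constitutive form, differed from sham by 0.28 ± 0.27 after ovariectomy. All 5 of these genes lay below ovariectomy alone with late estradiol (median -0.15), and 3 of 5 did without late replicate 1.

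Mt2A, a metallothionein that binds zinc and copper, was the only measured member of the ferritin and metallothionein group. Its log2 signals were 7.90 and 7.29 in sham, 8.30 and 8.04 after ovariectomy alone, 7.90 and 7.80 with early estradiol, and 8.69 and 7.86 with late estradiol. Both ovariectomy arrays lay above both sham arrays, at 0.57 ± 0.30 (limma unadjusted p = 0.0883, adjusted p = 1). The late arrays were spread more widely than any other pair, and the late difference from sham was 0.68 ± 0.30 (unadjusted p = 0.0501, adjusted p = 0.997).

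**Figure D3:**
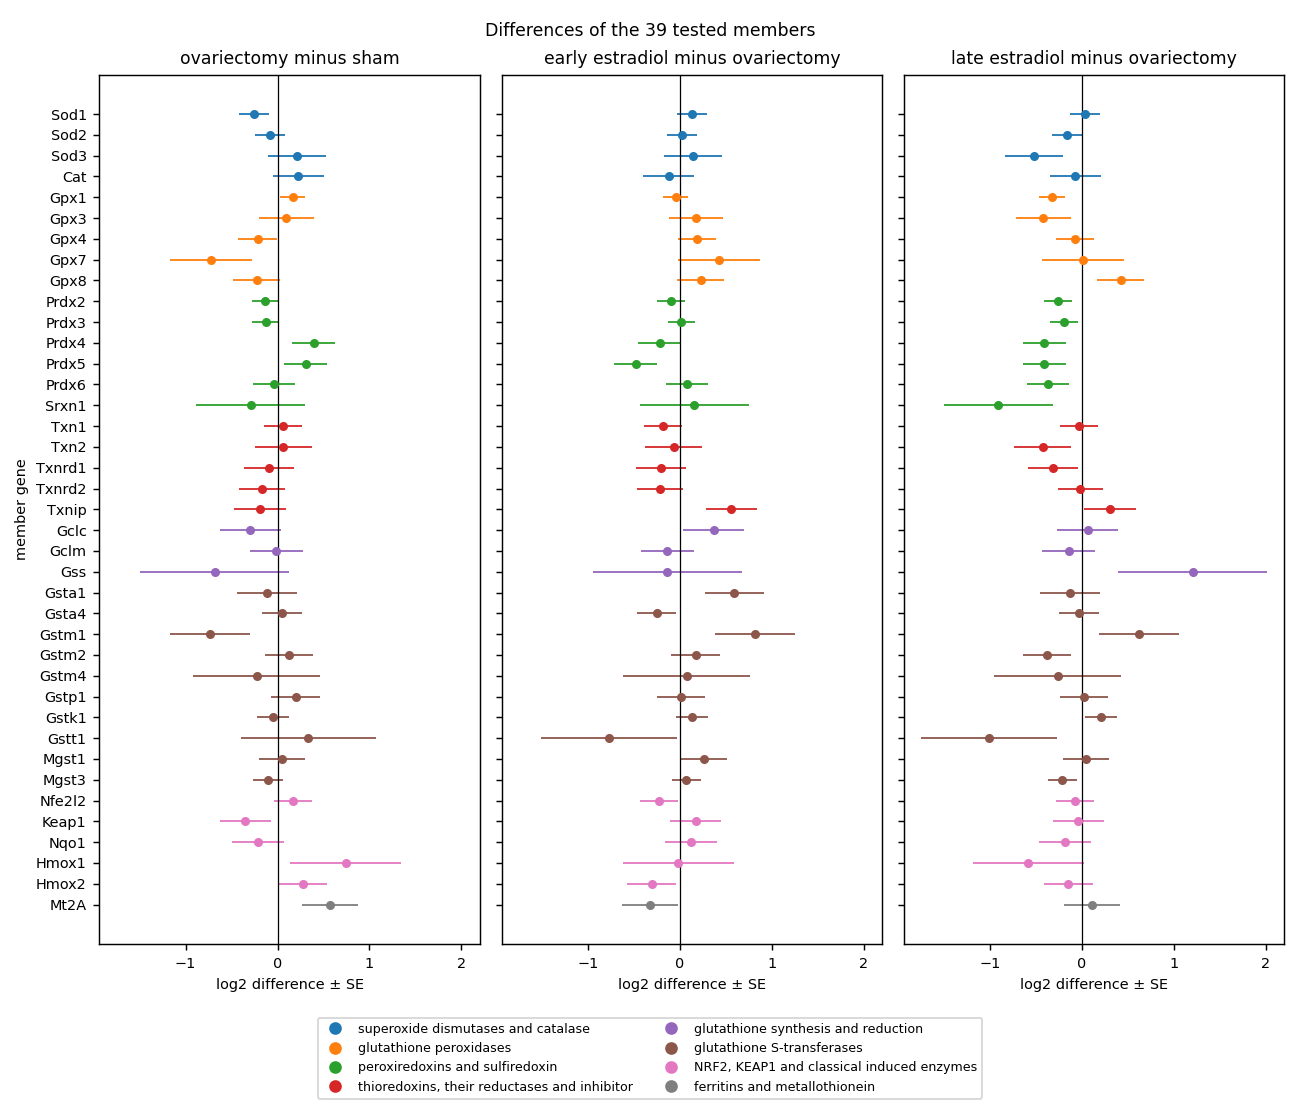
Log2 difference of group means with its standard error (horizontal axis) for the 39 tested members (vertical axis, coloured by role) in ovariectomy against sham, early estradiol against ovariectomy and late estradiol against ovariectomy. The 6 green peroxiredoxin and sulfiredoxin points all lie left of 0 in the late panel.

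Set side by side, ovariectomy against sham gave a member median of -0.05, beside -0.03 over all probe sets, with 22 of 39 members below 0 (53.3% of all probe sets). The groups did not overlap for 11 members, 4 higher and 7 lower, beside 25.1% of all probe sets (11% higher and 14.1% lower). The higher ones were Gpx1, Prdx4, Hmox2 and Mt2A, and the lower ones were Sod1, Gpx7, Gpx8, Prdx2, Prdx3, Gstk1 and Keap1. The direction of the member median depended on ovariectomy replicate 1: without it the median was 0.11.

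Early estradiol against ovariectomy gave a member median of 0.03 beside 0.02 over all probe sets, and 17 of 39 members lay below 0 (47.1%). The groups did not overlap for 11 members, beside 27% of all probe sets (14.7% higher and 12.3% lower): Txnip, Gclc, Gsta1 and Gstm1 were higher, and Prdx4, Prdx5, Txnrd2, Gsta4, Gstt1, Nfe2l2 and Mt2A were lower. The median was -0.07 without ovariectomy replicate 1 and -0.09 without early replicate 2.

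Late estradiol against ovariectomy had 28 of 39 members below 0 (48.8% of all probe sets), with a median of -0.14 beside 0.01. The groups did not overlap for 11 members, beside 29.1% of all probe sets (15.7% higher and 13.4% lower), a share close to the background. The 8 lower ones were Sod2, Sod3, Gpx1, Prdx2, Prdx3, Prdx4, Gstt1 and Mgst3, and the 3 higher ones were Gpx8, Gss and Gstk1. Without late replicate 1 the median was -0.02 and 20 of 39 members lay below 0.

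Late against early estradiol gave a member median of -0.21 beside -0.01 over all probe sets, with 27 of 39 below 0 (50.7%). The groups did not overlap for 15 members, beside 31.8% of all probe sets (15.5% higher and 16.3% lower). The 11 lower ones were Sod2, Sod3, Gpx1, Prdx2, Prdx3, Prdx4, Prdx6, Gclc, Gsta1, Gstm2 and Mgst3, and the 4 higher ones were Txn1, Gss, Gsta4 and Nfe2l2. Without late replicate 1 the median was -0.03, with 21 of 39 below 0. The comparisons above share the ovariectomy, early or late arrays, so their values are not independent of each other.

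Against sham, early estradiol had a member median of -0.03 beside -0.000803, with 22 of 39 below 0 (50.1%). The groups did not overlap for 10 members, 6 of them higher, beside 24.7% of all probe sets (12.1% higher and 12.7% lower). Late estradiol had a median of -0.22 beside -0.02, with 26 of 39 below 0 (51.9%) and 14 members that did not overlap, 12 of them lower, beside 30.6% of all probe sets (14.5% higher and 16.1% lower). The 12 were Sod2, Gpx1, Gpx7, Prdx2, Prdx3, Prdx6, Srxn1, Gclc, Gclm, Mgst3, Keap1 and Nqo1. Without late replicate 1 the late median was -0.01.

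These counts depend on how the arrays are brought to a common scale. Without between-array normalization, 34 of 39 members lay below 0 in ovariectomy against sham, 8 in early and 36 in late estradiol against ovariectomy, 38 in late against early, and 28 and 39 in early and late estradiol against sham. Counted against the median of all probe sets in the same setting, they were 24, 19, 30, 29, 22 and 29 of 39.

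**Figure D4:**
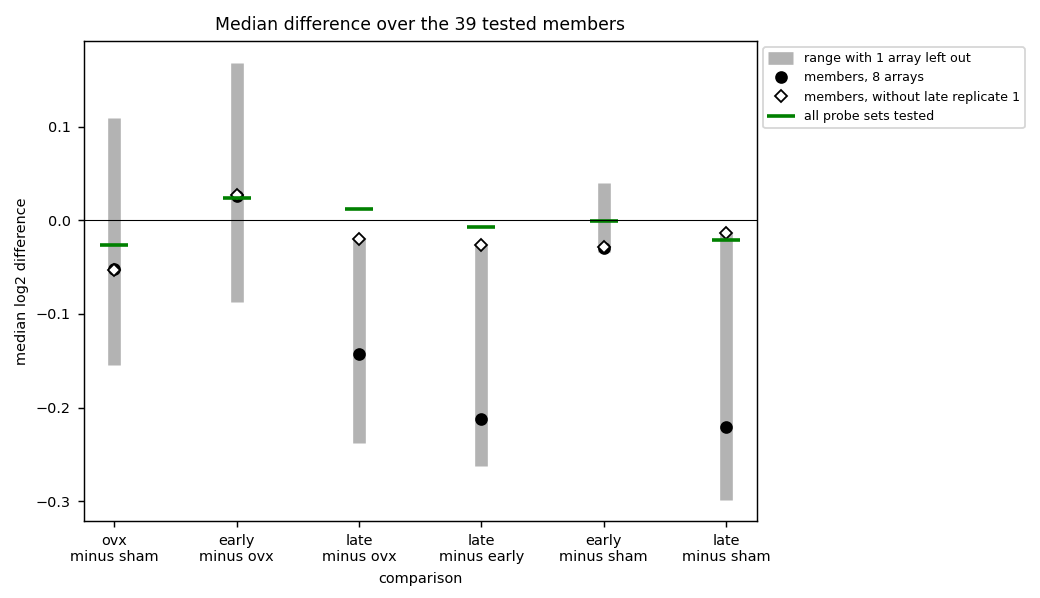
Median log2 difference over the 39 tested members (vertical axis) in each of the 6 comparisons (horizontal axis): black points use all 8 arrays, grey bars span the values with 1 array left out, open diamonds leave out late replicate 1, and green dashes are the median over all probe sets tested. The late comparisons have black points from -0.14 to -0.22, while their diamonds lie between -0.03 and -0.01.

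The late values were also read array by array. Late replicate 1 was the lowest of the 8 arrays for 46.2% of the tested members and for 23.3% of all probe sets. Its low brightness and high Gapdh ratio are given above, and their part in these values was not tested. Both late arrays lay below the other 6 for Sod2, Gpx1, Prdx2, Prdx3 and Mgst3, which is 5 of 39 members (4.39% of all probe sets). Fewer members stood beyond all other arrays in the other groups. Prdx2 was above the rest in sham (2.24% of all probe sets were), Prdx4 after ovariectomy alone (2.39%), and Gclc and Gsta1 with early estradiol (2.16%), while Gsta4 was below the rest with early estradiol (1.99%). No member was below the rest in sham (1.61%) or after ovariectomy alone (3.28%), or above the rest with late estradiol (4.16%).

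Genes around these enzymes were read from 6 lists, and none passed the test in any comparison with all 8 arrays. In late estradiol against ovariectomy, the 26 tested NRF2 targets and regulators outside the members had a median of -0.11. Of these, 18 lay lower (69.2%, beside 48.8% of all probe sets). Their median was -0.23 between the replicate 1 arrays and 0.11 between the replicate 2 arrays. The smallest p belonged to the prostaglandin reductase Ptgr1 (0.42 ± 0.17), the exporter Abcc4 (-0.85 ± 0.36) and the autophagy receptor Sqstm1 (-0.37 ± 0.17). The 20 other genes of glutathione turnover had a median of -0.06, led by Gstz1 (0.62 ± 0.23), Anpep (-2.18 ± 1.33) and Gsto2 (-0.93 ± 0.84). That median was -0.13 between the replicate 1 arrays and 0.06 between the replicate 2 arrays. Leaving out late replicate 1 put Abcc4 at -0.48 and Gsto2 at -0.60. Anpep stood at -0.31 and -4.04 without late replicates 1 and 2, and at -4.10 and -0.32 without ovariectomy replicates 1 and 2.

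NADPH feeds both reductases, and the 12 tested genes of its supply split evenly in late estradiol against ovariectomy, 6 higher and 6 lower. H6pd, which makes NADPH in the endoplasmic reticulum, stood at 1.13 ± 0.61, malic enzyme Me1 at -0.23 ± 0.19 and transketolase Tkt at -0.32 ± 0.32. With early estradiol H6pd stood at 1.54 ± 0.61 (limma unadjusted p = 0.0291, adjusted p = 1). Its level was 3.11 on ovariectomy replicate 1 and 4.80 to 5.78 on the other 7 arrays, and without that array the early difference was 0.72 and the late one 0.29, while without ovariectomy replicate 2 they were 2.38 and 1.97. Me1 stood at -0.12 without ovariectomy replicate 1 and -0.14 without late replicate 1, and Tkt at -0.53 and -0.11 without ovariectomy replicates 1 and 2. The 23 other thioredoxin and glutaredoxin genes had a late median of 0.10, with 13 higher and 10 lower. They were led by Txnl1 (0.49 ± 0.23), Glrx (-0.76 ± 0.42) and Selenot (0.38 ± 0.23). That median was opposite in sign to the median of the members. It was -0.11 between the replicate 1 arrays and 0.07 between the replicate 2 arrays, so its sign was not stable. Glrx stood at -0.35 and -1.17 without late replicates 1 and 2, and at -1.26 and -0.28 without ovariectomy replicates 1 and 2. Selenot stood at 0.25 without late replicate 1, and at 0.62 and 0.14 without ovariectomy replicates 1 and 2.

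Among the 13 tested sources of reactive oxygen, 7 lay below ovariectomy alone with late estradiol (median -0.0017). Cybb, the catalytic subunit of the phagocyte NADPH oxidase and also a macrophage marker, stood at -1.01 ± 0.42, Rac2 at -0.98 ± 0.50 and Alox5 at -1.86 ± 1.14. The Rac2 and Alox5 values rest on late replicate 1: they were -0.0076 and -0.028 without it, and -1.94 and -3.67 without late replicate 2, where that array alone stands for the group and Rac2 passed (limma adjusted p = 0.045). Cybb stood at -0.66 without late replicate 1 and -0.56 without ovariectomy replicate 2. The 8 macrophage markers, which include Cybb itself, had a median of -0.83 in that comparison, with 7 lower. The part of macrophages in the Cybb value was not tested. Ncf1, which organizes the same oxidase, stood at -2.04 ± 0.65 with early estradiol against ovariectomy (limma unadjusted p = 0.0105, adjusted p = 1), and at -1.10 without early replicate 1. Its level was 2.22 and 4.13 on the early arrays and 4.88 to 5.47 elsewhere. In that comparison 8 of the 13 genes lay higher and 5 lower (median 0.08). The largest rise was that of Ptgs1, at 1.02. At a limma unadjusted p under 0.05, 1 gene lay higher and 1 lower, beside 1.71% of all probe sets. Of the 10 iron and metal genes, 8 lay below ovariectomy alone with late estradiol (median -0.09). The median of these 10 was -0.41 between the replicate 1 arrays and -0.016 between the replicate 2 arrays. The list was led by Aco1 (-0.58 ± 0.24), the transferrin receptor Tfrc (-0.70 ± 0.35) and the iron exporter Slc40a1 (-0.30 ± 0.29). Aco1 stood at -0.35 without late replicate 1, and Tfrc at -0.42 without late replicate 2. Slc40a1 stood at 0.040 and -0.64 without late replicates 1 and 2, and at -0.19 without ovariectomy replicate 1.

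NRF2 binds antioxidant response elements, whose core TGACNNNGC (N is any base) was searched on both strands in RefSeq promoters of the assembly GRCr8, from 250 bases before to 50 after each gene's start. Of the 44 genes, 35 had a promoter in the table, some with several. The core was in 12 of these 40 member promoters (30%), each of a different gene, and in 4038 of all 33469 promoters (12.1%). The full palindromic estrogen response element, also searched on both strands, was in 0 of 40 member promoters and 9 of all promoters (0.0269%). A match is a description of the letters, not a site. The windows that lie wholly before the gene start are printed to show the core and its flanks, with the core in capitals, on the gene's strand; Prdx1 is among them although it has no value here.

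Gclm, chr2:213031951-213031983, + strand: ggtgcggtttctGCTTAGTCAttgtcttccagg
Gstp1, chr1:210769746-210769778, - strand: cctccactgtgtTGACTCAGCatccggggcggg
Hmox2, chr10:11337687-11337719, - strand: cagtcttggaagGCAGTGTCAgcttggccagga
Mt2A, chr19:10838925-10838957, - strand: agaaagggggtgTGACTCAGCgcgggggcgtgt
Prdx1, chr5:135383759-135383791, + strand: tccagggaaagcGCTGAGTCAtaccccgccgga
Sod2, chr1:50050183-50050215, - strand: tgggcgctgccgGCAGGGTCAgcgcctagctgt
Txnrd1, chr7:22755962-22755994, - strand: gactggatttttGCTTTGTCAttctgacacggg

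In Gstp1, Mt2A and Prdx1 the core overlaps an AP-1 site, TGACTCA or its reverse complement. The other 5 genes with a core were Gsta1, Gsta3, Nfe2l2, Prdx4 and Prdx5. Of the 10 tested genes with a core, 8 lay below ovariectomy alone with late estradiol (median -0.15), and of the 23 with a promoter but no core, 16 did (median -0.07). With early estradiol, 7 of the 10 lay below ovariectomy (median -0.21) and 8 of the 23 did (median 0.12). The order was the other way in ovariectomy against sham, with 4 of the 10 (median 0.18) and 15 of the 23 (median -0.13) below sham. It was also the other way in late against early estradiol, with 5 of the 10 (median 0.00015) and 17 of the 23 (median -0.22). Against sham, 6 of the 10 (median -0.04) and 15 of the 23 (median -0.09) lay lower with early estradiol, and 6 of the 10 (median -0.06) and 17 of the 23 (median -0.25) with late estradiol. The difference between genes with and without a core was not tested. The searched window was short, so a gene without a core in it may hold one elsewhere. Nqo1, Gclc and Srxn1 were among the 23, and Hmox1 had no promoter to search. The split therefore does not sort the genes by whether NRF2 drives them.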

How the data were processed

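The deposited table holds the authors' linear signal intensity of each probe set on each array, and the submitters' processing notes name MAS5. The MAS5 version and scaling target are not stated there, and no detection call was used. Of 31099 probe sets, 57 controls were left out. Values were log2-transformed, quantile-normalized, and filtered at the 40th percentile of mean log2 signal, which left 18625. Symbols were taken from GEO's annotation of the platform: 20826 probe sets had 1 symbol, 436 several and 9780 none. A gene was represented by its brightest probe set of that symbol alone.

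Group means over all 8 arrays entered a limma 3.58.1 model (R 4.3.3) with an intensity trend (4 residual degrees of freedom), two-sided, and adjusted by Benjamini-Hochberg over all probe sets at 0.05. The members and lists were chosen with earlier results of these data known, and so were the tests. Counts of arrays beyond all others, and values of related-list genes with 1 array left out, were added after the values were seen. Per-array values are given for the 12 members of smallest F-test p and the 4 of smallest p in each of 4 comparisons. They are also given for 12 measured members chosen for their role. From each related list the 3 genes of smallest p in late estradiol against ovariectomy are named. H6pd, Ncf1 and Ptgs1 are named for early estradiol. Simulated data were also tested for late estradiol against ovariectomy. Of 50 probe sets each, 3, 23, 36 and 34 were called at true log2 differences of 1, 2, 4 and -4. The simulated noise was independent between arrays, unlike the correlated replicate differences of the data. The changed probe sets were drawn at random, not matched to the members in brightness. The number of arrays limits the precision.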

Additional observations from a re-analysis of the deposited data

Results flagged for a closer look

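Alox15, a lipoxygenase in the list of sources of reactive oxygen, lay above ovariectomy alone on both early arrays and below it on both late arrays. Its log2 signals were 3.41 and 3.68 in sham, 2.78 and 1.77 after ovariectomy alone, 5.68 and 4.69 with early estradiol, and 0.85 and 1.47 with late estradiol. It was picked from the members and related lists for this pattern, and the share of all probe sets with such a pattern was not counted. The late minus early difference was -4.02. The probe set was too dim for the filter, so the difference was not tested.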

How the results depend on the processing

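No member passed 0.05 under any of the 16 settings, which are all 8 arrays as above, 7 other processing choices and the 8 fits that leave out 1 array; the smallest adjusted p was 0.0811, for Srxn1 in late estradiol against sham without late replicate 2. Where 1 array was left out, the lone array was assumed to vary like the other groups. Of 2160 alternative values for 24 named members, 147 changed sign and 232 moved by more than the residual SD.

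Without between-array normalization the member medians were -0.37 in ovariectomy against sham, 0.19 in early and -0.45 in late estradiol against ovariectomy, -0.70 in late against early, and -0.16 and -0.84 in early and late estradiol against sham. The medians over all probe sets there were -0.31, 0.18, -0.31, -0.48, -0.14 and -0.62. With arrays scaled to a common median the member medians were -0.23 in ovariectomy against sham and 0.22 in early estradiol against ovariectomy. They were -0.47 in late against early and -0.45 in late against sham. In late estradiol against ovariectomy, 36 and 34 of 39 members lay below 0 under these settings, and 30 lay below the median of all probe sets under each.

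Leaving out 1 array at a time gave member medians from -0.15 to 0.11 in ovariectomy against sham, -0.088 to 0.17 in early and -0.24 to -0.020 in late estradiol against ovariectomy, -0.26 to -0.027 in late against early, and -0.30 to -0.013 in late against sham. Counts of probe sets called ranged from 0 to 3 in ovariectomy against sham, 0 to 65 in late estradiol against ovariectomy, 0 to 100 in late against early, 0 to 86 in late against sham and 0 to 1 in the F test. The highest counts of the late comparisons and the F test came without late replicate 2, which leaves late replicate 1 alone.

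In late estradiol against ovariectomy, 1 probe set was called with no filter, 1 with 32 added before the log and 1 with the replicate block, none a member. The arrays share replicate numbers, and the replicate differences of the groups correlated at 0.277 to 0.331, but with 2 numbers this does not establish pairing. With the replicate block the smallest adjusted p of a member was 0.604. At an unadjusted p under 0.05 the block gave 1 member in ovariectomy against sham (3.08% of all probe sets), 3 in early (3.68%) and 3 in late estradiol against ovariectomy (8.03%), 7 in late against early (7.79%), and 0 and 7 in early and late estradiol against sham (1.63% and 7.18%).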
